A study of Mus musculus with 16 samples.

Results

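The neutrophil granule and alarmin genes are 10 mouse genes whose products fill the granules and cytoplasm of neutrophils: S100a8, S100a9, Retnlg, Ngp, Camp, Ltf, Mmp8, Mmp9, Mpo and Elane. They were taken by gene symbol from the array annotation, 1 feature each, and make up 10 of the 19505 genes measured. By role they comprise 2 primary granule genes (Mpo and Elane), 5 later granule genes (Camp, Ngp, Ltf, Mmp8 and Mmp9) and 3 alarmin or secreted genes (S100a8, S100a9 and Retnlg).

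Neutrophils make their granules in order as they mature. Primary granule proteins, among them myeloperoxidase and elastase, are transcribed in promyelocytes, and their mRNAs are largely lost in mature cells. Secondary and tertiary granule proteins such as lactoferrin, cathelicidin, collagenase and gelatinase are transcribed in later stages, and the alarmins S100A8 and S100A9 remain abundant in circulating cells. In the nasal lining neutrophils patrol the tissue and its vessels as a first defence, while sensory neurons and their supporting cells make up most of the epithelium.

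The arrays measured RNA of sorted olfactory mucosa cells of S100a5-tauGFP mice on a C57BL/6 background, in which a green fluorescent reporter follows S100a5, an activity-dependent calcium-binding protein gene of olfactory sensory neurons. All mice carried this reporter and breathed clean air, singly, for 40 h. Whiskey lactone, an oak aroma compound, or filtered air as vehicle was pulsed for 10 s every 20 min from 26 h on. The 24 animals, male and female, were 7 to 12 weeks old, and cells of 3 of them formed each pool. The 4 groups, each of 4 pools, were odor arrays titled GFP+, odor arrays titled GFP-, vehicle arrays titled GFP+ and vehicle arrays titled GFP-, and each of the 8 pools gave 1 array of each fraction. The reporter marks active sensory neurons only, and the labels give no other marker of the sort.

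Titles and the cell type field name the fraction in opposite ways in 16 of 16 arrays, and groups are called here by title. S100a5 itself was lower in the arrays titled GFP+ than in those titled GFP- (log2 difference -1.34 in odor and -1.23 in vehicle pools). The direction of the reporter's own gene thus matched the cell type field and not the titles. The granule and alarmin genes were higher in the fraction with less S100a5 signal. Which label is right was not tested, and titles serve here only as names. Anyone who follows the cell type field must turn round every sign between fractions. Medians over genes were 6.62 to 7.13 on the log2 signal scale, medians of the negative control features 4.98 to 5.59, and the brightest feature of each array 19.09 to 19.24. Omp, the marker of mature olfactory neurons, differed by -0.14 and -0.06 between fractions and lay near that ceiling in all 16 arrays. With 4 arrays a group, precision is limited by their number. In these bulk samples fewer cells of a type and less RNA per cell cannot be told apart.

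The promoters of 4 of the genes are shown, each as 300 bases across the annotated start. They were picked because the later results compare Mpo and Elane with the later granule and alarmin genes. From that set Ngp and S100a8 are examples and do not stand for all of it. They come from RefSeq on build GRCm38.p6, all on the plus strand: Mpo chr11:87793534-87793833, Elane chr10:79886062-79886361, Ngp chr9:110419558-110419857 and S100a8 chr3:90668821-90669120. Of the 10 genes, 9 had an entry. Capitals mark matches to 3 motifs, among them the C/EBP letters TTNNGNAA (TTNCNNAA on the other strand). The others are the PU.1 core GAGGAAG on either strand and the TATA box letters (TATAAA) on the coding strand.
Mpo: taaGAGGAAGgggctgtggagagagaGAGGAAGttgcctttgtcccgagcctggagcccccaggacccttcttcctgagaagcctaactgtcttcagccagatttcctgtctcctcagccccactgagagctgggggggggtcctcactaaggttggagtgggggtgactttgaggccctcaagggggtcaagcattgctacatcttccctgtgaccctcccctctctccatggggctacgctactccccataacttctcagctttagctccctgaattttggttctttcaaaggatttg
Elane: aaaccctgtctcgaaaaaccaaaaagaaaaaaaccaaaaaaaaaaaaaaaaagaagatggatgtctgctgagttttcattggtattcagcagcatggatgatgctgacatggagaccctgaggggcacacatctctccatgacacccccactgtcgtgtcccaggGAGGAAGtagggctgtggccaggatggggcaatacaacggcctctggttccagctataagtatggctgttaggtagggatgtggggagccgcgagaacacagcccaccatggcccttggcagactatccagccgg
Ngp: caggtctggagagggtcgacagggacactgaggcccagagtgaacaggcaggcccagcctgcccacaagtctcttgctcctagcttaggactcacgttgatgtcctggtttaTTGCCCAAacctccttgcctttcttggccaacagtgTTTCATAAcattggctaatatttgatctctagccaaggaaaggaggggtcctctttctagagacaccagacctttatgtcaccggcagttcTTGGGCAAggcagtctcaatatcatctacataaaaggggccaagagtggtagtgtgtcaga
S100a8: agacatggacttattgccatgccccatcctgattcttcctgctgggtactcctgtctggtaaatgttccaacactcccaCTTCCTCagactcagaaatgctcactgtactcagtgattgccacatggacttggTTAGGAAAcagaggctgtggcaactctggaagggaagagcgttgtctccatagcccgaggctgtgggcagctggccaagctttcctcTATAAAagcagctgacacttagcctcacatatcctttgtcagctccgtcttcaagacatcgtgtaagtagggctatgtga
The C/EBP letters stood in 6 of the 9 promoters (S100a8, S100a9, Mmp8, Ngp, Ltf and Retnlg), against 40.7% of all 32851 promoters of this length. The PU.1 letters stood in 4 of 9 (Mpo, Elane, S100a8 and Mmp8), against 13.6% of all. The TATA box letters stood in 2 of 9, S100a8 and S100a9, against 8.32%. In S100a8 they began 30 bases before the start, and in S100a9 at the annotated start itself, not before it. Camp had no match to any of these motifs, and no match overlapped a match to another motif in these 9 promoters. C/EBP factors and PU.1 are transcription factors of the myeloid lineage, and a match of letters is not evidence of binding.

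The comparison of fractions asked which genes separate the sorted cells of the same pool. All 10 genes were far higher in the arrays titled GFP+, after odor and after vehicle. S100a8, S100a9, Retnlg and Ngp, which lay above the control median in all arrays titled GFP-, differed by 330- to 535-fold, and the primary granule genes, which also did, by 95.2- to 197-fold. Camp and Mmp9 in all arrays titled GFP-, and Mmp8 and Ltf in some, were at background, which limits their folds. In the odor pools 10 of 10 genes passed the threshold as higher, where 12.8% of all genes did, and in the vehicle pools 10 of 10, where 12.3% did. Arrays titled GFP+ lay above all arrays titled GFP- for 10 of 10 genes in both treatments, against 12% and 11.2% of all genes. Differences of at least 64-fold that passed the threshold were met by all 10, against 0.513% and 0.451% of all genes. These tests used limma with the pool as a block, adjusted over all 19505 genes, and the median difference of all genes was -0.15 in odor and -0.14 in vehicle pools.

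**Figure D1:**
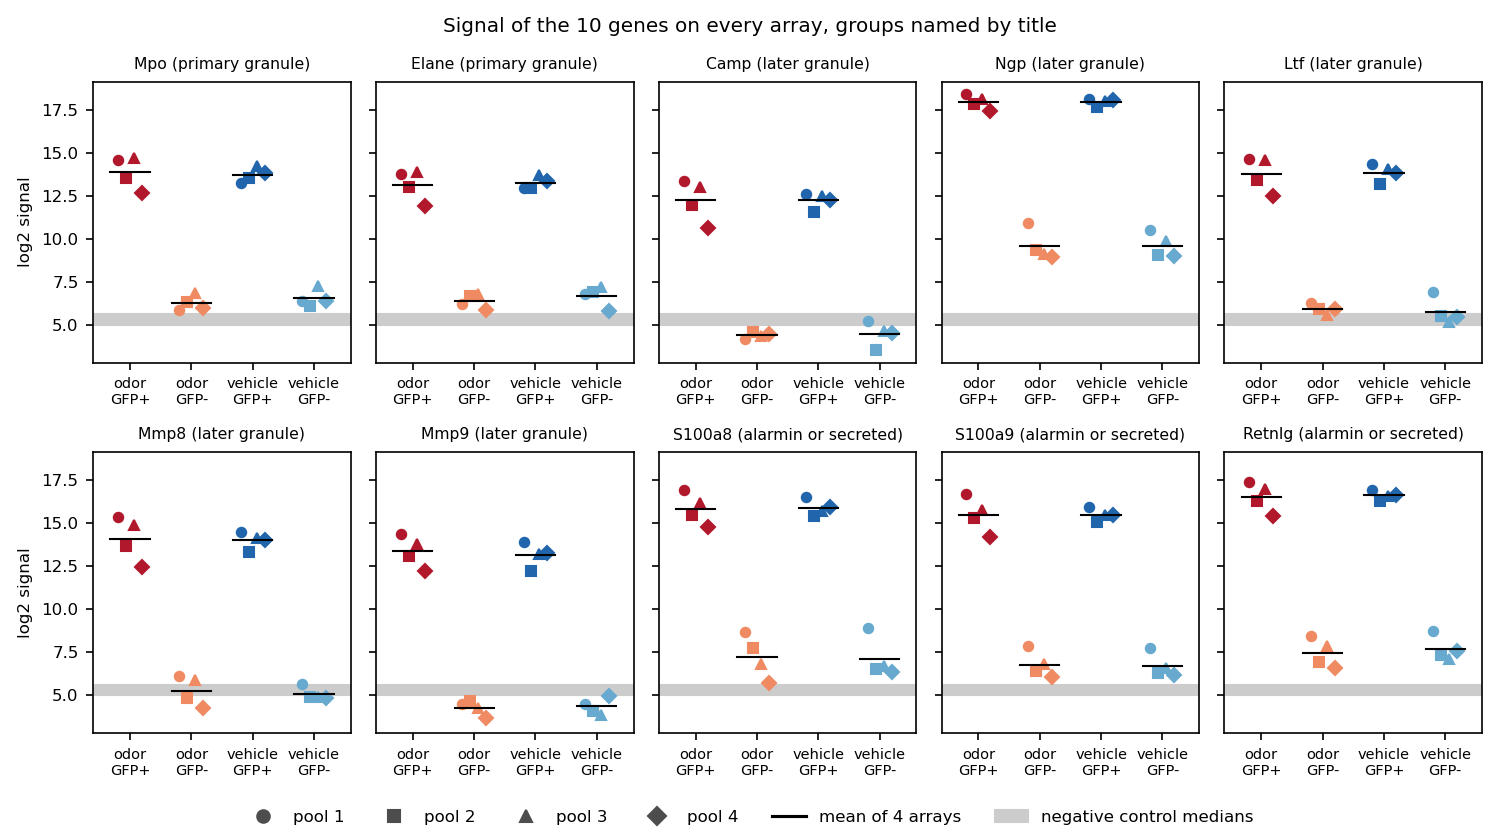
Each panel plots 1 gene as log2 signal on the 16 arrays, grouped by treatment and title, with a symbol for each pool of 3 mice, a line at the mean of 4 arrays, and a grey band for the range of negative control medians (4.98 to 5.59). Arrays titled GFP+ stand far above arrays titled GFP- in every panel, while odor and vehicle arrays of a fraction overlap.

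Among the primary granule genes, Mpo encodes myeloperoxidase, which makes hypochlorous acid from hydrogen peroxide. Its log2 signals in pools 1 to 4 were 14.57, 13.54, 14.70 and 12.67 in odor arrays titled GFP+, against 5.84, 6.34, 6.83 and 5.99 in odor arrays titled GFP-. In vehicle arrays they were 13.22, 13.53, 14.20 and 13.81 in those titled GFP+, against 6.39, 6.09, 7.22 and 6.36 in those titled GFP-. Every Mpo array titled GFP- lay above the negative control median, odor pool 4 was the lowest array titled GFP+, and pool 3 was the highest of each group. The log2 difference was 7.62 ± 0.25 (SE from limma), or 197-fold, in odor pools (limma, adjusted p = 1.69e-10). It was 7.17 ± 0.25, or 144-fold, in vehicle pools (limma, adjusted p = 2.81e-10). Every SE between fractions given here rests on 1 spread estimated over the pools of both treatments. The SD of the Mpo differences of 4 pools was 0.88 in odor and 0.32 in vehicle. Elane encodes neutrophil elastase, a serine protease stored with myeloperoxidase. Its signals were 13.76, 13.01, 13.87 and 11.89 in odor arrays titled GFP+, against 6.22, 6.64, 6.78 and 5.87 in odor arrays titled GFP-. The vehicle arrays gave 12.96, 12.92, 13.68 and 13.34 in those titled GFP+, against 6.77, 6.88, 7.16 and 5.79 in those titled GFP-. As with Mpo, pool 3 was the highest of each group. Elane had the smallest difference of the 10 genes, 6.76 ± 0.26 or 108-fold in odor pools (limma, adjusted p = 6.87e-10) and 6.57 ± 0.26 or 95.2-fold in vehicle pools (adjusted p = 9.13e-10).

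Among the later granule genes, Ngp encodes neutrophilic granule protein, a cystatin-like protein of secondary granules. Its log2 signals were 18.39, 17.86, 18.12 and 17.41 in odor arrays titled GFP+, close to the ceiling of the arrays, against 10.91, 9.34, 9.13 and 8.93 in odor arrays titled GFP-. In vehicle arrays they were 18.09, 17.67, 18.01 and 18.06 in those titled GFP+, against 10.51, 9.03, 9.84 and 9.004 in those titled GFP-. Pool 1 was the highest array in all 4 groups. The difference was 8.37 ± 0.23 (SE), or 330-fold, in both treatments (limma, adjusted p = 4.82e-11 in odor and 5.37e-11 in vehicle pools), and whether the ceiling reduced it was not tested.

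Camp encodes the cathelicidin antimicrobial peptide, also of secondary granules. Its signals were 13.35, 11.98, 12.98 and 10.59 in odor arrays titled GFP+, against 4.14, 4.58, 4.35 and 4.43 in odor arrays titled GFP-. After vehicle they were 12.59, 11.56, 12.50 and 12.22 in those titled GFP+, against 5.20, 3.53, 4.64 and 4.53 in those titled GFP-. Every array titled GFP- was at or below its negative control median for Camp, so the fold is a bound: at least 122-fold higher in odor and at least 105-fold higher in vehicle arrays titled GFP+, with the control median in place of each dim value (limma on the measured values, adjusted p = 3.68e-09 and 4.33e-09). Measured against a probe at background, Camp differed by 6.16 to 9.21 within the odor pools and 7.39 to 8.03 within the vehicle pools.

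Mmp8, neutrophil collagenase, had signals of 15.34, 13.68, 14.86 and 12.46 in odor arrays titled GFP+, against 6.10, 4.86, 5.86 and 4.22 in odor arrays titled GFP-. The vehicle arrays had 14.49, 13.31, 14.16 and 14.00 in those titled GFP+, against 5.65, 4.86, 4.89 and 4.85 in those titled GFP-. Arrays titled GFP- straddled the control median, with 2 of 4 odor arrays and 1 of 4 vehicle arrays above it. The measured differences were 8.82 ± 0.18 in odor and 8.93 ± 0.18 in vehicle pools (limma, adjusted p = 4.82e-12 and 4.15e-12), and with the control median in place of each dim value Mmp8 was 349-fold and 343-fold higher. Mmp9, gelatinase B of tertiary granules, lay between 12.21 and 14.39 in odor arrays titled GFP+, and between 3.67 and 4.67 in odor arrays titled GFP-. It lay between 12.19 and 13.90 in vehicle arrays titled GFP+, and between 3.87 and 4.97 in vehicle arrays titled GFP-. It was at or below the control median on all 8 arrays titled GFP-, and was thus at least 272-fold higher in odor and at least 198-fold higher in vehicle arrays titled GFP+ (limma, adjusted p = 9.25e-11 and 1.2e-10). Ltf, the iron-binding lactoferrin, lay between 12.51 and 14.62 in odor arrays titled GFP+ and between 5.53 and 6.27 in odor arrays titled GFP-, of which 4 of 4 exceeded the control median. After vehicle it lay between 13.16 and 14.35 in arrays titled GFP+ and between 5.18 and 6.87 in arrays titled GFP-, of which 1 of 4 exceeded the control median. Its measured differences were 7.88 ± 0.32, or 236-fold, in odor and 8.10 ± 0.32 in vehicle pools (limma, adjusted p = 1.22e-09 and 9.45e-10), and with the control median in place of each dim value the vehicle fold was 251.

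S100a8 and S100a9 encode the subunits of calprotectin, a calcium- and metal-binding alarmin that activates Toll-like receptor signalling outside the cell. S100a8 signals were 16.93, 15.49, 16.19 and 14.75 in odor arrays titled GFP+, against 8.67, 7.72, 6.79 and 5.70 in odor arrays titled GFP-. In vehicle arrays they were 16.51, 15.42, 15.71 and 15.96 in those titled GFP+, against 8.92, 6.49, 6.68 and 6.35 in those titled GFP-. Pool 1 was again the highest in each group, and among vehicle arrays titled GFP- it stood well apart from the other three. The differences were 8.62 ± 0.29, or 394-fold, in odor pools and 8.79 ± 0.29, or 444-fold, in vehicle pools (limma, adjusted p = 1.88e-10 and 1.65e-10). S100a9 signals were 16.70, 15.27, 15.75 and 14.20 in odor arrays titled GFP+, against 7.84, 6.42, 6.81 and 6.03 in odor arrays titled GFP-. With vehicle they were 15.94, 15.04, 15.45 and 15.45 in those titled GFP+, against 7.71, 6.30, 6.56 and 6.18 in those titled GFP-. The same array order by pool as for S100a8 appeared in odor arrays titled GFP+, and the differences were 8.71 ± 0.17 in odor and 8.78 ± 0.17 in vehicle pools (limma, adjusted p = 3.42e-12 and 3.06e-12). Retnlg, a resistin-like secreted protein of mouse neutrophils, lay between 15.39 and 17.38 in odor arrays titled GFP+, and between 6.55 and 8.43 in odor arrays titled GFP-. It lay between 16.30 and 16.92 in vehicle arrays titled GFP+, and between 7.10 and 8.72 in vehicle arrays titled GFP-. Its differences of 9.06 ± 0.16, or 535-fold, and 8.94 ± 0.16, or 491-fold, ranked 3 and 2 among all genes in odor and vehicle pools (limma, adjusted p = 3.42e-12 and 3.06e-12).

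Signals of 9 of the 10 genes in all arrays titled GFP- lay under the 95th percentile of the negative controls (9.09 to 10.11), and Ngp exceeded it in 1 odor and 1 vehicle array, both of pool 1. The size of each fold therefore depends on how near background the dim fraction was. Against that stricter percentile the genes were still higher in arrays titled GFP+, by 289-fold (Ngp) down to 6.85-fold (Camp) in odor pools and by 260-fold down to 5.68-fold in vehicle pools.

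Setting primary against later granule and alarmin genes asked whether the stages of granule formation differed alike between fractions. Median log2 differences were 7.19 for the primary granule, 8.37 for the later granule and 8.71 for the alarmin and secreted genes in odor pools. In vehicle pools they were 6.87, 8.37 and 8.79. Within each pool the median of the 8 later and alarmin genes minus that of Mpo and Elane was 0.77, 1.69, 1.55 and 2.00 in odor pools 1 to 4, and 1.39, 1.80, 2.21 and 1.59 in vehicle pools 1 to 4. It was above 0 in 8 of 8 pools, with a mean of 1.62 ± 0.43 (SD, n = 8 pools). With Camp and Mmp9 set to the control median in arrays titled GFP-, the later granule medians became 8.09 in odor and 8.10 in vehicle pools, and the within-pool value stayed above 0 in 8 of 8 pools (0.47 to 2.12, mean 1.51 ± 0.49). Gene by gene the order was less regular. As measured, all 8 later and alarmin genes exceeded both primary genes in 6 of 8 pools, and with Camp and Mmp9 at the control median in 1 of 8. In odor pool 1 Ngp, S100a8 and Ltf had smaller differences than Mpo, and in odor pool 4 Camp and Ltf did. Over the 95th percentile of the negative controls the later granule genes other than Ngp no longer stood apart. Odor folds were then 21.5 (Mpo) and 12.9 (Elane), against 24.9 (Mmp8), 20.2 (Ltf), 15.2 (Mmp9) and 6.85 (Camp). Vehicle folds were 15.7 and 11.4, against 19.3, 17.4, 10.8 and 5.68. Ngp, S100a8, S100a9 and Retnlg stayed above both primary genes, at 53.9-fold or more. The genes were chosen with these values known and share arrays, so no test is given, and a difference in fold between genes also carries the background of each probe.

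**Figure D2:**
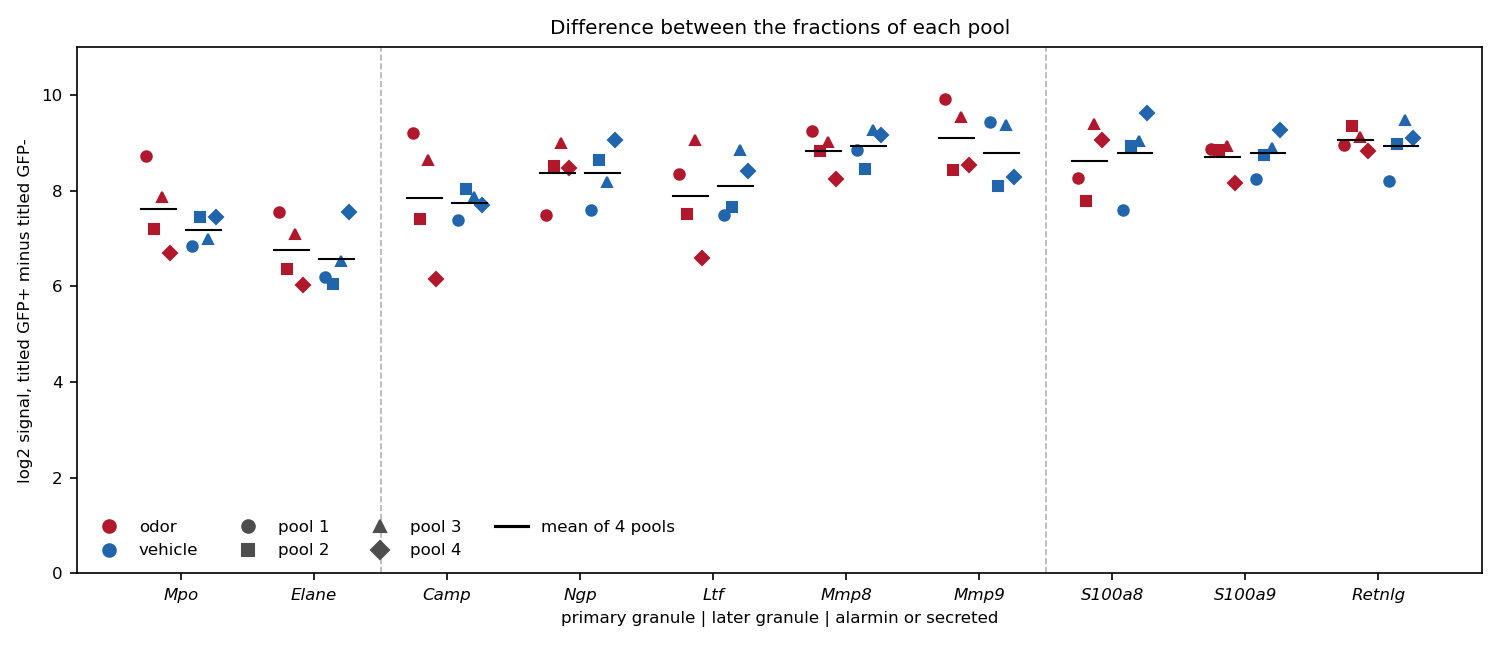
The log2 difference between the fractions of a pool, titled GFP+ minus titled GFP-, is plotted for each gene in 4 odor and 4 vehicle pools, with lines at the means and genes ordered by role. Elane has the lowest means (6.76 and 6.57), and the lowest single value is 6.02, of Elane in odor pool 4.

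The pools of mice differed in how far the primary and the later genes lay from their group means. In odor arrays titled GFP+, pool 1 was the highest for 8 of 8 later and alarmin genes (median deviation 1.05), and pool 3 was the highest for Mpo and Elane (0.78). Mpo and Elane were nearly as high in pool 1 (0.67), and all 10 genes lay above their group mean in both of these pools. Pool 4 was the lowest for all 10 genes, by a median of -1.22 for both sets. Vehicle arrays titled GFP+ had the same leaders. Pool 1 was the highest for 8 of 8 later and alarmin genes (0.49) while Mpo and Elane lay below their mean there (-0.37), and pool 3 was the highest for Mpo and Elane (0.48). In arrays titled GFP-, of the 4 later and alarmin genes above the control median on all 8 arrays (S100a8, S100a9, Retnlg and Ngp), pool 1 was the highest for 4 of 4 in each treatment, and pool 3 was the highest for Mpo and Elane in both. The remaining 4 were partly or wholly at background there, and their order was not read. Fractions of 1 pool come from the same mice, so they do not add independent pools. The shared order of the numbers 1 and 3 across treatments involves different mice, and the labels do not say that a number marks a shared day.

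**Figure D3:**
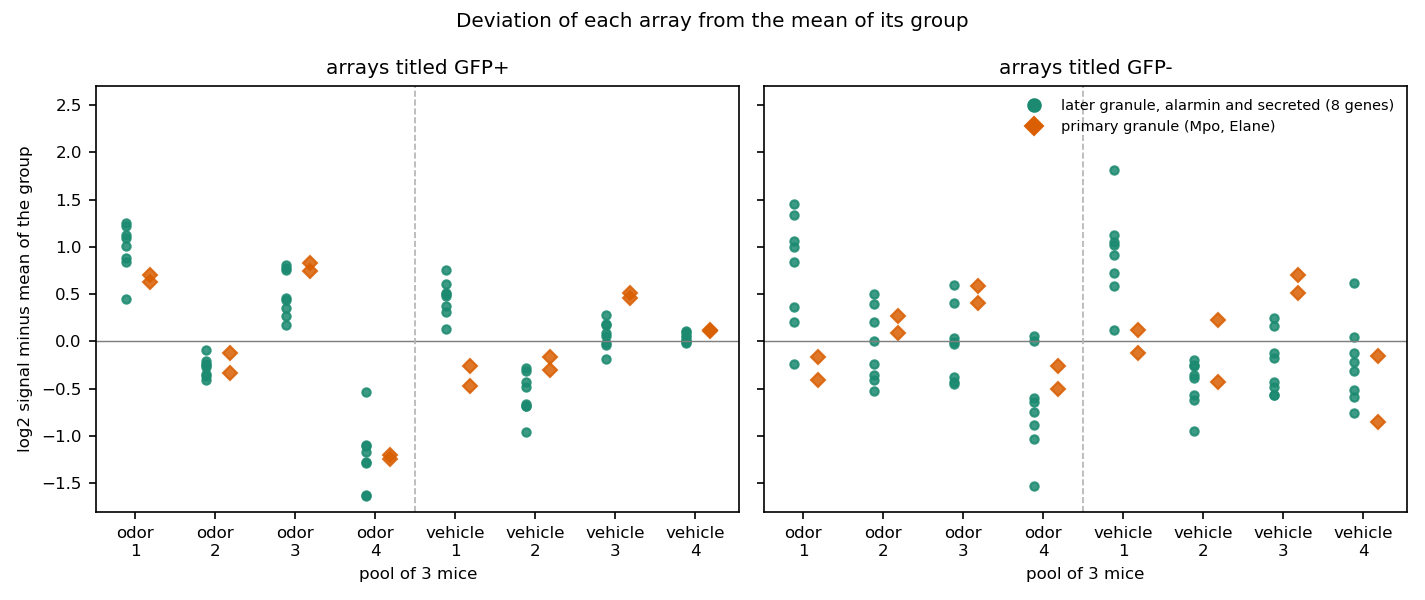
Each point is the log2 signal of 1 gene on 1 array minus the mean of its group of 4 arrays, for the 8 pools, with arrays titled GFP+ on the left and arrays titled GFP- on the right. In vehicle pool 1 the later and alarmin genes lie above 0 on both arrays, while Mpo and Elane lie below 0 on the array titled GFP+ (median -0.37) and near 0 on the array titled GFP- (median -0.0018).

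Across the 8 arrays titled GFP+ the later granule and alarmin genes varied together. Pearson's r of their 28 pairs was 0.898 to 0.993 and Spearman's rho 0.905 to 1.0, and 28 of 28 passed after adjustment over 45 pairs (exact permutation test, two-sided, n = 8, adjusted p 0.0004 to 0.0022). With the 2 arrays farthest from the median left out, r was 0.779 to 0.990. Mpo and Elane had r = 0.958 and rho = 0.976 (exact permutation test, n = 8, adjusted p = 0.0005), and r = 0.953 without the 2 farthest arrays. For a primary with a later or alarmin gene, r was 0.657 to 0.914 and rho 0.524 to 0.833 over 16 pairs. By r, 14 of these 16 passed (exact permutation test, adjusted p 0.0042 to 0.075), by rho 5 of 16. Without the 2 farthest arrays r was 0.065 (S100a8 with Mpo) to 0.752 (Mmp9 with Elane). It was then lower than over all 8 arrays for every pair except Mmp9 with Elane, which had 0.724 over all 8. After subtracting treatment means r was 0.926 to 0.995 within the later and alarmin genes, 0.981 for Mpo with Elane, and 0.660 to 0.917 between the sets. Across the 8 arrays titled GFP- no pair passed: r was 0.087 to 0.930 within the later and alarmin genes, 0.622 for Mpo with Elane and -0.487 to 0.375 between the sets (exact permutation test, n = 8, smallest adjusted p = 0.05). These permutations treat the 8 arrays as exchangeable, although most odor and vehicle arrays of the same number deviated together, so the p-values may be too small. The difference between within-set and between-set correlations was not tested.

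Outside the 10, the genes closest to the later and alarmin mean over the 8 arrays titled GFP+, after subtracting treatment means, were Rhd (r = 0.994), Flna (0.993), Tsc22d3 (0.993), Ldha (0.991) and Cyrib (0.990). Closest to the mean of Mpo and Elane were Klra2 (0.982), Slc9a5 (0.976), H2-Q1 (0.969), Fgd4 (0.965) and Nkg7 (0.963). The means of the sets correlated at 0.820 with each other. These genes were picked as the highest of 19505, and the r values are descriptions. Rhd, H2-Q1 and Slc9a5 had signals at background level (4.10 to 5.89, 4.23 to 5.05 and 2.82 to 3.66).

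Other granule genes were taken from lists of related genes. Of 9 further primary granule and promyelocyte genes 8 were higher in arrays titled GFP+ in odor and 8 in vehicle pools, with median log2 differences of 3.40 and 3.76. In arrays titled GFP- 4 of the 9 in odor and 5 in vehicle arrays were at or below the control median. Cst7 was one of these and counts as higher, although its fold over that median was 1.29 in odor and 1.01 in vehicle arrays. Myb, a transcription factor of blood progenitors, differed by 5.64 ± 0.28 (SE) and 5.49 ± 0.28 in odor and vehicle pools (limma, adjusted p = 7.84e-09 and 1.1e-08). Mgst1, a microsomal glutathione transferase, differed by 4.74 ± 0.27 and 4.27 ± 0.27 (limma, adjusted p = 2.83e-08 and 8.35e-08). Ctsg, the primary granule protease cathepsin G, and Ms4a3, a membrane protein of granulocyte progenitors, were at or below the control median in arrays titled GFP- and at least 9.04- and 12.5-fold higher in odor arrays titled GFP+ (limma, adjusted p = 4.05e-07 and 1.78e-06). The mean of the 9 genes deviated from its group by 0.88, -0.69, 0.63 and -0.82 in odor arrays titled GFP+ of pools 1 to 4, and by -0.10, -0.27, 0.48 and -0.12 in vehicle arrays titled GFP+. Pool 1 was thus the highest after odor and pool 3 after vehicle.

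Of 17 further secondary and tertiary granule genes 17 were higher in arrays titled GFP+ in each treatment, with medians of 5.25 in odor and 4.21 in vehicle pools. In arrays titled GFP- 9 of the 17 in odor and 12 in vehicle arrays were at or below the control median. Among these was Adam8, which gives both medians and was at least 8.82-fold higher in odor and at least 4.80-fold higher in vehicle arrays titled GFP+. The medians are therefore not set against those of the primary list. Lcn2, the siderophore-binding lipocalin, differed by 8.24 ± 0.25 and 8.49 ± 0.25 (limma, adjusted p = 9.25e-11 and 7.62e-11), Chil3, a chitinase-like secreted protein, by 7.88 ± 0.19 and 8.60 ± 0.19 (1.8e-11 and 7.14e-12), and Lyz2, lysozyme, by 7.51 ± 0.21 and 7.30 ± 0.21 (5.02e-11 and 6.06e-11). The mean of the 17 deviated by 0.92, -0.39, 0.53 and -1.05 in odor and by 0.48, -0.69, 0.06 and 0.16 in vehicle arrays titled GFP+, with pool 1 the highest in both. Macrophages also transcribe Lyz2 and Chil3. Of 16 genes of the mature neutrophil surface and cytoplasm 16 were higher in odor and 15 in vehicle pools (medians 4.80 and 4.45), among them Il1b, the cytokine interleukin-1 beta (6.02 ± 0.21 and 6.42 ± 0.21; limma, adjusted p = 2.2e-10 and 1.42e-10). Cxcr1, called in odor pools (0.75; limma, adjusted p = 0.0198), counts among the 16 although it was at or below the control median in all groups. All 5 genes of the phagocyte NADPH oxidase, which supplies the hydrogen peroxide that myeloperoxidase uses, were higher in both treatments (medians 6.79 and 6.70). Ncf1, an organizer subunit, differed by 7.30 ± 0.24 and 7.37 ± 0.24, and Cybb, the catalytic subunit, by 6.79 ± 0.22 and 6.70 ± 0.22 (limma, adjusted p 1.27e-10 to 1.69e-10).

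Family relatives of the 10 genes were measured as well. The resistin family members Retn, Retnla and Retnlb were at or below the control median in all 4 groups, and their differences did not pass (limma, adjusted p 0.0546 to 0.993). Among 19 other matrix metalloproteinases 4 were higher and 2 lower in odor pools and 3 higher and 2 lower in vehicle pools (medians 0.01 and 0.01). Of all genes 12.8% and 12.3% were higher and 14.7% and 13.6% lower, and the counts of this list are read against those shares. The higher ones included Mmp25, a membrane-anchored protease of neutrophil granules, and Mmp12, the macrophage elastase, whose fitted differences of 3.52 and 3.48 in odor and 3.41 and 3.32 in vehicle pools rest on dim arrays titled GFP- (limma, adjusted p 5.99e-08 to 1.54e-05). Mmp24, a membrane-type protease of neurons, had a log2 difference of -0.59 in both treatments (limma, adjusted p = 0.0197 and 0.0199). With arrays centred on neuron markers no metalloproteinase of the list was called lower, and 8 in odor and 4 in vehicle pools were called higher. Of 3 peroxidase relatives, Epx, eosinophil peroxidase, and Lpo, lactoperoxidase, were at or below the control median in all groups. Epx was called higher in odor pools all the same (0.57; limma, adjusted p = 0.0492) and not in vehicle pools (0.54; adjusted p = 0.0629). Pxdn, a peroxidase of basement membranes, was lower (-0.54 and -0.53; limma, adjusted p = 0.0145 and 0.0165), and no peroxidase relative was called lower after neuron centring.

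The S100 list of 17 genes takes in S100a5 and the binding protein gene S100pbp. It held 4 higher and 4 lower in odor and 4 higher and 6 lower in vehicle pools. Of all genes 12.8% and 12.3% were higher and 14.7% and 13.6% lower. S100a2 and S100a14 count among the 6 although they were at or below the control median in both groups of vehicle arrays. S100a2, also called lower in odor pools, was at or below it in odor arrays titled GFP+. S100a11 had the largest difference, 7.06 ± 0.21 and 6.98 ± 0.21 (limma, adjusted p = 8.17e-11 and 7.62e-11). S100a6 differed by 2.76 and 2.16, S100a10 by 2.18 and 2.74 (from dim arrays titled GFP-) and S100a4 by 1.37 and 2.13, all higher in arrays titled GFP+ (limma, adjusted p 4.68e-06 to 0.00373). S100a5, the reporter's gene, was the most reduced of the list. The number called lower depended on scaling: it was 11 in odor and 9 in vehicle pools when arrays were centred on their medians, 4 and 4 with cyclic loess scaling, and 3 and 2 when they were centred on markers of mature neurons.

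Receptors and inhibitors of the products formed a mixed group. Of 8 receptors of alarmins and cathelicidin 5 were higher in each treatment, where 12.8% and 12.3% of all genes were. Among them were Cd14 (4.43 ± 0.55 in odor, 3.61 ± 0.55 in vehicle pools) and Tlr2 (3.77 ± 0.38 and 3.75 ± 0.38), the lipopolysaccharide co-receptor and a Toll-like receptor (limma, adjusted p 6.65e-06 to 0.000257). Tlr4 and P2rx7 count among the 5 although they were at or below the control median in arrays titled GFP-. With the control median in place of each dim value, Tlr4 had folds of 1.36 in odor and 1.05 in vehicle arrays. P2rx7 had 1.11 and 0.92. Ager, the receptor for advanced glycation end products, did not pass (-0.23 and -0.40; limma, adjusted p = 0.56 and 0.312). In both groups of vehicle arrays Ager was at or below the control median. Of 13 inhibitors of proteases and metalloproteinases 5 were higher in odor and 4 in vehicle pools, read against 12.8% and 12.3% of all genes. Stfa1 and Stfa2 count among them although they were at or below the control median in arrays titled GFP-. The fold of Stfa1 over that median was 1.20 in odor and 1.05 in vehicle arrays. Serpinb1a, an intracellular inhibitor of elastase and cathepsin G, differed by 6.25 ± 0.29 and 6.05 ± 0.29, and Wfdc21, a whey acidic protein of neutrophils, by 4.36 ± 0.33 and 4.42 ± 0.33 (limma, adjusted p 3.49e-09 to 3.61e-07).

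Markers of other cells also differed between the fractions. Of 10 macrophage and monocyte markers 8 were higher in arrays titled GFP+ in odor and 9 in vehicle pools, and the log2 of their summed signal was 10.75 to 12.59 in odor arrays titled GFP+, against 8.61 to 9.40 in odor arrays titled GFP-, and 10.87 to 12.37 in vehicle arrays titled GFP+, against 8.83 to 9.64 in vehicle arrays titled GFP-. All 6 early haematopoietic markers were higher in both treatments, with summed levels of 10.70 to 12.28 in odor arrays titled GFP+, against 6.94 to 7.48 in odor arrays titled GFP-, and 10.50 to 11.88 in vehicle arrays titled GFP+, against 7.07 to 7.35 in vehicle arrays titled GFP-. In arrays titled GFP- the defining markers Cd34, Cd48, Flt3 and Gata2 were at or below the control median. Of 5 B cell markers 3 and 4 were higher, and all 5 were at or below the control median in arrays titled GFP-. Their summed level was 8.53 to 11.46 in odor arrays titled GFP+, against 6.66 to 6.80 in odor arrays titled GFP-, and 7.51 to 10.55 in vehicle arrays titled GFP+, against 6.47 to 6.79 in vehicle arrays titled GFP-. Of 7 sustentacular cell markers 6 were higher in each treatment, and their summed level was 15.78 to 17.27 in odor arrays titled GFP+, against 13.86 to 15.07 in odor arrays titled GFP-, and 16.11 to 17.45 in vehicle arrays titled GFP+, against 14.31 to 15.89 in vehicle arrays titled GFP-. The 6 endothelial markers had median differences of 0.02 and -0.03, and Cdh5, Emcn, Kdr and Tek were at or below the control median in all groups.

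Such markers also moved with the pools. In odor arrays titled GFP+ the mean of the macrophage markers deviated from its group by 0.71, -0.71, 0.42 and -0.42 in pools 1 to 4, that of the B cell markers by 1.56, -0.44, -0.58 and -0.55, and that of the sustentacular markers by 1.07, -0.54, -0.19 and -0.35. In vehicle arrays titled GFP+ the same means deviated by 0.52, -0.71, 0.26 and -0.07, by 0.93, -1.13, 0.68 and -0.49, and by 0.79, -0.56, 0.19 and -0.42. Pool 1 was thus the highest for these markers in both treatments, as for the later granule and alarmin genes. The early haematopoietic mean deviated by 0.56, -0.50, 0.56 and -0.62 in odor and by 0.07, -0.46, 0.38 and 0.02 in vehicle arrays titled GFP+. That of 5 erythroid markers deviated by 0.30, -0.03, 0.87 and -1.14 in odor and by 0.12, -0.88, 0.55 and 0.20 in vehicle arrays titled GFP+. Pool 3 was the highest for the erythroid mean in both treatments, as for Mpo and Elane. The part of these cells in the pool differences was not tested.

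The last comparison asked whether whiskey lactone changed the 10 genes. None passed in either fraction, and odor and vehicle arrays overlapped for 10 of 10 genes in both. In arrays titled GFP+ the difference, odor minus vehicle, was -0.12 (Retnlg) to 0.23 (Mmp9), with a median of -0.01 and 95% confidence intervals that reached from -1.25 to 1.13. The smallest unadjusted p was 0.560 (limma, adjusted p = 0.9997), with 1 gene of all called (0.00513%) and 2.38% of all genes not overlapping between odor and vehicle. In arrays titled GFP- the differences were -0.27 (Elane) to 0.20 (Mmp8), with a median of -0.05 and intervals from -1.08 to 1.30. The smallest p there was 0.457 (limma, adjusted p = 0.959), with 0 genes of all called (0%), 1147 genes at an unadjusted p under 0.05, and 4.45% of all genes not overlapping. Changes within these intervals could not be detected with 4 pools a treatment.

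**Figure D4:**
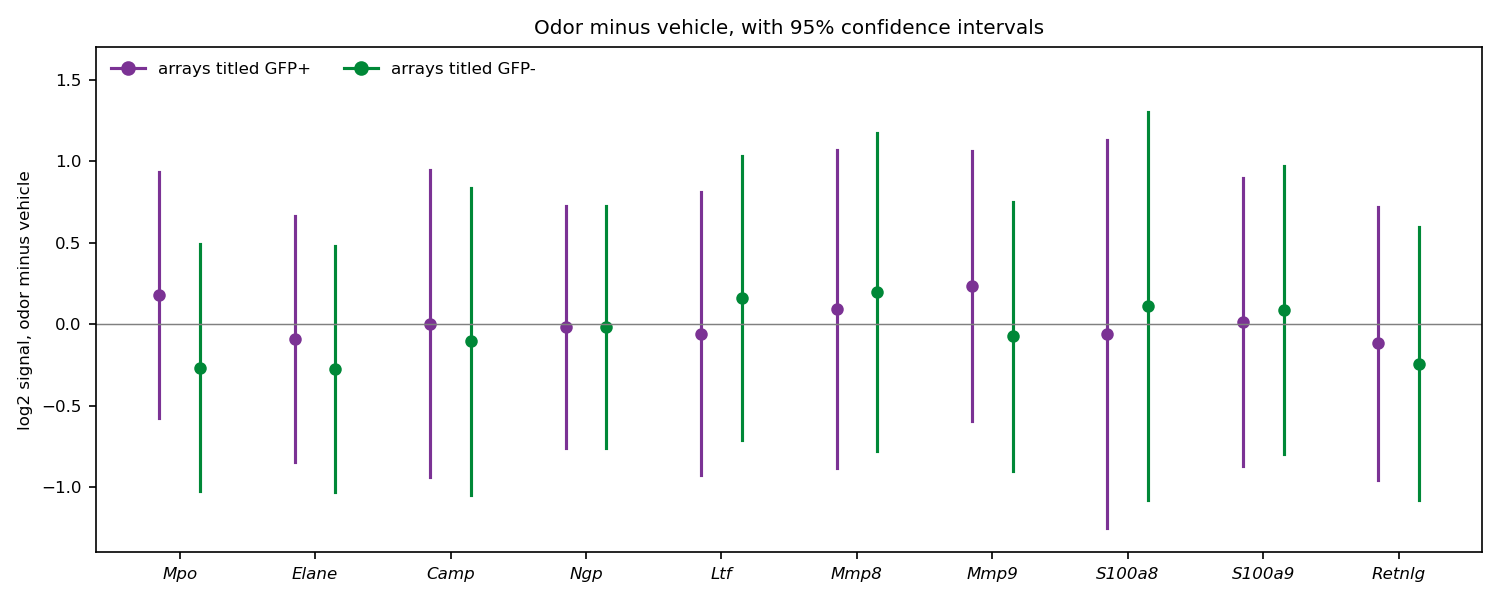
Points are the log2 difference of odor minus vehicle for each gene, in purple for arrays titled GFP+ and in green for those titled GFP-, and lines are 95% confidence intervals from limma with the pool as a random block. All 20 intervals include 0, and the widest belong to S100a8 (-1.25 to 1.13 and -1.08 to 1.30).

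The fraction difference itself was not called as changed by odor. Odor minus vehicle of that difference was -0.22 (Ltf) to 0.45 (Mpo), with intervals from -1.20 to 1.22 and 0 of 10 genes called, against 0.00513% of all genes (limma, smallest unadjusted p = 0.232, adjusted p = 0.999). Mpo differed between fractions by 7.62 in odor and 7.17 in vehicle pools, which gives the 0.45 (95% interval -0.32 to 1.22). The related gene lists held no call for odor in either fraction (limma).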

How the data were processed

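Expression was measured on 16 arrays of biotin-labelled cRNA from 50 to 100 ng of RNA. The deposited values are log2 signals in 1 series table, which per the submitters' processing notes were made by the authors in Affymetrix Expression Console. Its version and its normalization are not stated there. The log2 scale was read from the values. Of 28846 features, 19572 had 1 gene symbol, and the brightest feature of each gene was kept (19505 genes). The 5222 negative control features measured background. No 2 arrays were duplicates (smallest SD of log2 differences 0.554).

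Differences were tested two-sided in R 4.3.3 with limma 3.58.1 (lmFit, eBayes with a variance trend) and Benjamini-Hochberg adjustment over all genes, at a threshold of 0.05, after the code had been checked on simulated data. For the fractions, each pool was a fixed block, which left 6 residual degrees of freedom. For odor against vehicle, a model of the 4 groups had pools as random blocks (correlation 0.164, 12 residual degrees of freedom). Correlations over pairs used scipy 1.17.1. Replicates were separate pools of mice. The fractions of a pool deviated together (r of 0.116 to 0.192 after odor, 0.136 to 0.341 after vehicle). Whether a number pairs odor with vehicle pools is taken up in the closing section.

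The 10 genes, the related lists and the marker lists were chosen with earlier results of these data known. Named genes were the 10, S100a5 and Omp, up to 4 of each list by the largest mean difference between fractions, and the 5 genes most correlated with each set. Ager, S100pbp and genes listed as being at background were named outside this rule, after their values were seen. Promoters were searched for motifs by exact letters. Alternatives were other blocks, median centring, cyclic loess, centring on mature neuron markers, a filter on dim genes, the mean of a gene's features and omission of each pool.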

Additional observations from a re-analysis of the deposited data

Results flagged for a closer look

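In 60 groups of 4 values each (10 genes in 4 groups of arrays, and their pool differences in 2 treatments), 3 held a value far from the other three, and chance alone gives about 1 in 20. S100a8 in vehicle arrays titled GFP- had its highest array, pool 1 (8.92), separated from the next by 0.871 of the group's range. Mmp8 in vehicle arrays titled GFP- had the same pool as its highest (5.65), at 0.948 of the range. The S100a9 difference between fractions had its lowest odor pool, pool 4, at 0.891 of the range.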

How the results depend on the processing

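Each of the 10 genes' fraction differences kept its direction and its call in 300 of 300 alternative values (6.21 to 9.39; limma, largest adjusted p = 1.92e-07). The later minus primary difference was 1.54 to 1.75 with 1 pool left out and 1.60 to 1.62 otherwise. In the second range only cyclic loess could move it. Centring shifts all genes of an array alike and cancels in this difference, and each of the 10 genes has 1 feature. Counts over all genes moved with scaling. In odor pools 5362 genes passed (2502 higher, 2860 lower), against 14808 (12906 lower) after median centring, 1395 lower after cyclic loess, and 4037 higher and 837 lower after centring on neuron markers. In vehicle pools 5064 passed (2406 higher, 2658 lower), against 14357 (12539 lower), 1411 lower, and 4201 higher and 738 lower. The median of all genes was -0.53 in odor and -0.51 in vehicle pools after median centring, against -0.15 and -0.14 as deposited. With 1 pool left out 1632 to 3002 genes were lower in odor pools (1632 without odor pool 1, 1655 without odor pool 3) and 1623 to 2695 in vehicle pools (1623 without vehicle pool 1).

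For odor in arrays titled GFP+, 1 gene passed and was lower. Odor and vehicle pools of 1 number deviated together at r over 0.1 in 7 of 8 pairs (0.079 to 0.410 in arrays titled GFP+, 0.198 to 0.279 in those titled GFP-), and 7 of 8 correlated best with their own number. As 1 pair missed that limit and no label ties the numbers, they were not taken to pair the pools. The replicate block gave 2 genes (2 higher, 0 lower), the filter on dim genes 0, and omission of a pool 0 to 8 (0 to 5 higher, 0 to 3 lower; 8 without odor pool 4). In arrays titled GFP- 0 genes passed (limma, 1147 at an unadjusted p under 0.05), the replicate block gave 15, all higher, and omission of a pool 0 to 2. None of the 10 genes was called in any of these fits. Signs near 0 turned: the Ngp interaction became -0.0115 after median centring and -0.0112 after neuron centring, and odor in arrays titled GFP+ became -0.0359 for S100a9 and -0.0445 for Camp after median centring and -0.00276 for Camp after neuron centring. With 1 pool left out, odor differences in arrays titled GFP+ that changed sign ranged -0.42 to 0.30 (S100a8), -0.40 to 0.44 (S100a9), -0.41 to 0.25 (Retnlg), -0.17 to 0.16 (Ngp), -0.37 to 0.55 (Camp), -0.34 to 0.37 (Ltf), -0.32 to 0.64 (Mmp8), -0.10 to 0.62 (Mmp9), -0.0937 to 0.58 (Mpo), -0.34 to 0.32 (Elane). Odor differences in arrays titled GFP- that changed sign ranged -0.37 to 0.72 (S100a8), -0.27 to 0.43 (S100a9), -0.57 to 0.11 (Retnlg), -0.46 to 0.29 (Ngp), -0.42 to 0.14 (Camp), -0.0318 to 0.53 (Ltf), -0.0803 to 0.55 (Mmp8), -0.24 to 0.13 (Mmp9). The odor minus vehicle of fraction differences that changed sign ranged -0.57 to 0.11 (S100a8), -0.26 to 0.10 (S100a9), -0.12 to 0.30 (Retnlg), -0.26 to 0.30 (Ngp), -0.35 to 0.67 (Camp), -0.61 to 0.21 (Ltf), -0.27 to 0.0911 (Mmp8), -0.0799 to 0.51 (Elane). The cause was not tested. Background limits the folds, and 4 pools a treatment limit odor effects.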

Other observations

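Markers outside the neutrophil lists gave further values between fractions. Of 9 mast cell, basophil and eosinophil markers 5 were higher in arrays titled GFP+ in odor and 4 in vehicle pools, among them Cpa3, a mast cell carboxypeptidase (log2 difference 4.22 ± 0.32 SE in odor, 3.74 ± 0.32 in vehicle pools), while Epx, Fcer1a, Tpsb2 and Cma1 were at or below the control median in all groups. Kit, the stem cell factor receptor of early haematopoietic and mast cells, differed by 4.34 ± 0.21 in odor and 4.38 ± 0.21 in vehicle pools (limma, adjusted p = 5.99e-09 and 5.5e-09). Of 5 erythroid markers 5 were higher in odor and 4 in vehicle pools (medians 3.62 and 2.10), and Slc4a1, the red cell anion exchanger, differed by 3.79 ± 0.36 and 2.55 ± 0.36 (limma, adjusted p = 3.11e-06 and 0.000134). Epb42, which gives both erythroid medians, was at or below the control median in arrays titled GFP-. Of 7 T and NK cell markers 4 and 5 were higher, with medians of 1.29 and 1.13. Cd3g gives both medians and counts among those called, although it was at or below the control median in all 4 groups. In arrays titled GFP- 5 of the 7 in odor and 6 in vehicle arrays were at or below the control median. Of 12 mature olfactory neuron markers 6 were lower in odor and 7 in vehicle pools (medians -0.24 and -0.28), 12 and 12 were after median centring, and 5 and 6 after cyclic loess. Of 7 immature neuron markers 5 were higher and 1 lower in each treatment, and 0 were lower after cyclic loess.

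Of 17 chemokines, cytokines and adhesion molecules that recruit neutrophils 9 were higher in arrays titled GFP+ in odor and 7 in vehicle pools, with medians of 0.67 and 0.42, where 12.8% and 12.3% of all genes were higher. Icam1, called in odor pools (0.67; limma, adjusted p = 0.0321), counts among the 9 although it was not above background. It also gives both medians. Csf3, Cxcl5, Cxcl15, Il17a, Il17f, Icam1 and Sele were at or below the control median in all 4 groups.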
